A study of Mus musculus with 8 samples.

Results

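The 35 genes described here belong to the DNA damage response and DNA repair. They were chosen by symbol, and each was found once among the 32285 features counted in 8 single-cell RNA libraries of T cells from the pancreas of NOD mice. By role, 18 of them sense damage or carry the checkpoint signal, 6 repair double-strand breaks, 2 belong to crosslink repair, and 9 act in excision repair, mismatch repair or strand ligation. For each gene the unique molecular identifiers (UMIs, tags that mark each captured transcript) were summed per library over T cells, over CD4-gated cells and over CD8-gated cells.

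As background, breaks in DNA are bound by the complex of Mre11a, Rad50 and Nbn, which activates the kinase Atm, while stretches of bare single-stranded DNA are coated by replication protein A (Rpa1 and Rpa2), which recruits the kinase Atr. Atm and Atr signal through the checkpoint kinases Chek2 and Chek1, and the signal stabilises p53 and, through the kinase Wee1, holds cells before mitosis. Dividing T cells copy their genome quickly, and lymphocytes use the end-joining proteins Xrcc5, Xrcc6, Prkdc and Lig4 to assemble their antigen receptor genes.

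NOD mice develop autoimmune diabetes, and the labels describe the animals as female NOD mice aged 3 to 4 months, or 3 to 5 months in the treatment protocol. The active library came from mice with blood glucose above 600 mg/dl and the onset library from mice at 250 mg/dl, with no drug named for either. The treated mice, at 200 to 300 mg/dl, received the drug pair PPCA or its vehicle daily, and 1 library was made per arm for each of the days 2, 3 and 4 in the sample names. In PPCA, 50 mg/kg of nutlin-3 releases p53 from its inhibitor MDM2, and 25 mg/kg of MK-1775 inhibits the WEE1 kinase. The vehicle was 30% EtOH, 5% Tween 20 and 65% PEG300. Per the labels, the cells were sorted as CD45+ CD3+ TCRβ+, frozen, and processed at the same time. Harvest followed the last dose by a day, and the series text names 1, 2 and 3 days of therapy, which would match the day names 2, 3 and 4 in that order, although no label pairs them. The number of mice per library is not given in the sources used here, so p-values measure the spread between these libraries only.

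After filtering, 70168 T cells were kept, from 6146 to 11518 per library, and they held 33324219 to 57157614 UMIs per library. These gated T cells carried the T cell genes at 5723 to 6768 CPM in sum (UMIs per 1000000 UMIs, scaled as described below). The B cell genes Cd79a, Cd79b and Ms4a1 stood at 5.11 to 8.65 CPM and the myeloid genes Lyz2, Csf1r and Cd68 at 1.43 to 4.65 CPM. The gate itself asked for at least 2 UMIs of the T cell genes and at most 1 of the B cell and myeloid genes. High and low sums were therefore set by the filter and are no test of purity. The pancreas genes summed to 12.1 CPM in the active and 23.6 CPM in the onset library, 65.1 to 121 CPM under vehicle and 94.1 to 144 CPM under PPCA. All mice are labelled female, but 4 libraries carried Y-linked transcripts at 206 to 292 CPM, namely vehicle of days 2 and 3 and PPCA of days 3 and 4. The other 4 libraries held at most 0.19 CPM. Any 2 libraries shared between 14 and 41 cell barcodes.

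All levels are scaled CPM unless stated otherwise, that is CPM after correction for composition by the TMM method, and they are compared between samples and not between genes. Before that correction the median gene was higher under PPCA by 0.16 on the log2 scale on day 3 in T cells, and by 0.034 and 0.036 on days 2 and 4. The members were counted at very different depths, from 120 UMIs of Fancd2 and 196 of Fanca to 20527 of Atm over all T cells. In the GENCODE vM21 annotation 15 members, among them Apex1, Lig1, Ddb1, Rad9a, Rad17 and Msh6, share exon sequence with a gene on the opposite strand and none with one on the same strand. Whether the counting used strand is not stated. Fold changes and p-values come from edgeR's quasi-likelihood test across all genes that passed a low-count filter. Adjustment was by Benjamini-Hochberg with a threshold of 0.05, and a gene is named as called where it passed. The test returns no standard error (SE). Each SE given was derived as the absolute log2 fold change divided by the square root of the test's F statistic.

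The treatment comparison asks what PPCA changed in pancreatic T cells. In all T cells, none of the 35 members was called by edgeR, and neither was any of the 13189 genes tested (0%). At an unadjusted p under 0.05 there were 3 members, all with lower values under PPCA, among 1054 genes (7.99% of those tested). DESeq2 called 71 genes and limma-voom 0, with no member among them. With the presence of Y-linked transcripts as a further factor 57 genes and again no member were called. The median log2 fold change was -0.013 over the members and 0.00026 over all genes tested. The 9 members of excision repair, mismatch repair and ligation had a median of -0.13 with 8 of 9 below 0, and the 6 of double-strand break repair a median of 0.11 with 4 of 6 above 0.

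Rpa1, the large subunit of the protein that coats single-stranded DNA, had the smallest p of the members. Its level in T cells was 45.5 CPM on day 2, 50.8 CPM on day 3 and 45.5 CPM on day 4 under vehicle, and 36.9, 36.6 and 32.3 CPM on the same days under PPCA. The arms did not overlap, at 47.3 ± 3.02 CPM under vehicle and 35.3 ± 2.55 CPM under PPCA (SD, n = 3 each). The log2 fold change was -0.42 (SE 0.086), with an edgeR adjusted p of 0.396 and an unadjusted p of 0.00153. Over the 11 other settings tried, the log2 fold change ran from -0.48 to -0.39 and its adjusted p did not go below 0.0625.

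The same order of the arms was measured for Rpa1 in both gates. In CD4-gated cells Rpa1 stood at 47.0, 55.4 and 48.1 CPM under vehicle and at 39.8, 42.0 and 36.0 CPM under PPCA on days 2, 3 and 4. In CD8-gated cells it stood at 41.0, 45.1 and 40.0 CPM under vehicle and at 37.0, 30.4 and 29.98 CPM under PPCA. The log2 fold changes were -0.36 (SE 0.092, edgeR adjusted p 0.579) and -0.38 (SE 0.105, adjusted p 0.478). CD4- and CD8-gated cells come from the same libraries, so they do not repeat the T cell result independently.

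**Figure D1:**
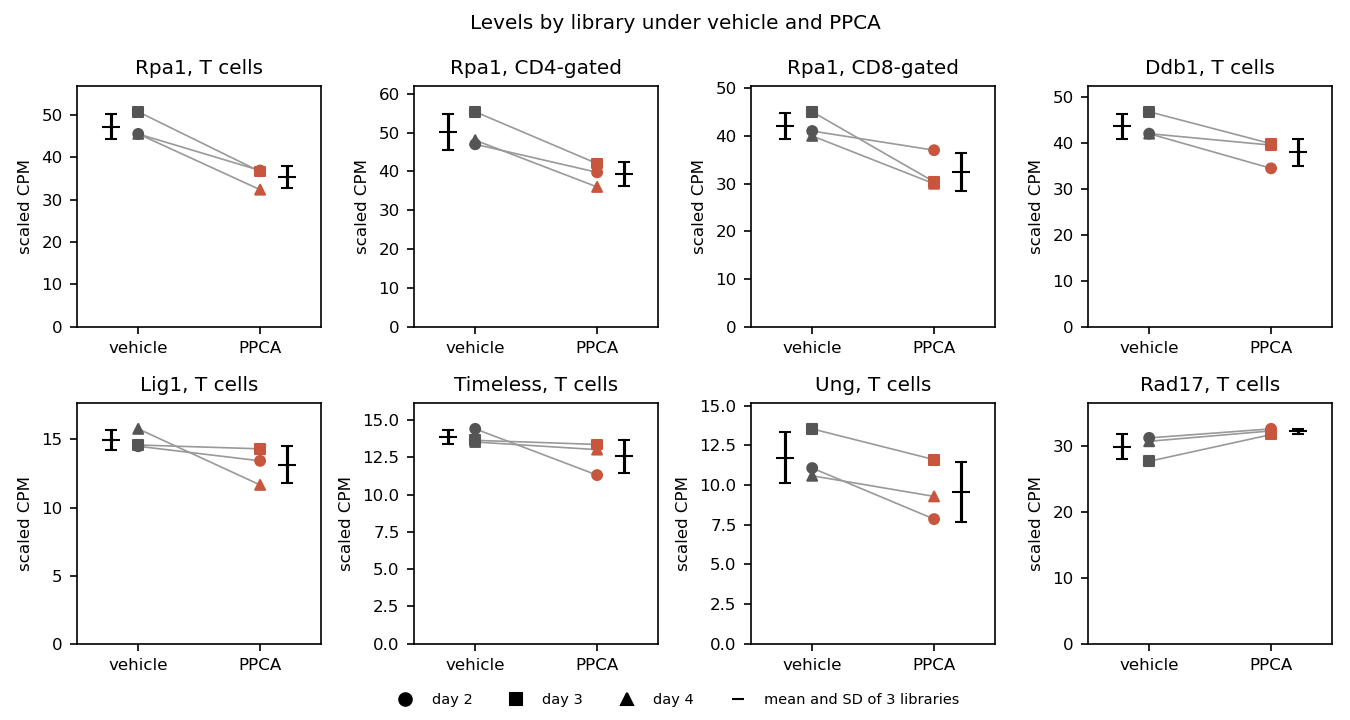
Level of Rpa1 in all T cells and within the CD4 and CD8 gates, and of Ddb1, Lig1, Timeless, Ung and Rad17 in T cells, in scaled CPM on a vertical axis from 0. Each point is 1 library, lines join the libraries of a day, and bars at the side give the mean and SD of the 3 libraries of an arm; the PPCA points of Rpa1 lie below all vehicle points in each of the 3 panels.

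In T cells the arms did not overlap for 5 members. The 4 with lower levels under PPCA were Rpa1, Ddb1, Lig1 and Timeless, which is 11.4% of the 35, beside 3.22% of all genes tested. Rad17, which loads the checkpoint clamp onto DNA, was the 1 member with a higher level in all PPCA libraries, beside 3.66% of all genes tested. Ddb1, a subunit of the damage-binding ubiquitin ligase, was at 43.6 ± 2.75 CPM under vehicle and 37.9 ± 3.01 CPM under PPCA (log2 fold change -0.20, SE 0.085, edgeR adjusted p 0.618). Lig1, the ligase that joins newly copied strands, was at 14.5, 14.6 and 15.8 CPM under vehicle and 13.4, 14.3 and 11.7 CPM under PPCA on days 2, 3 and 4. Only the day 4 library stood well below its vehicle partner for Lig1, and only the day 2 library for Timeless. Rad17 was at 31.2, 27.7 and 30.7 CPM under vehicle and 32.6, 31.7 and 32.3 CPM under PPCA on days 2, 3 and 4, which are log2 ratios of 0.06, 0.20 and 0.07.

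Ung, the glycosylase that removes uracil from DNA, was lower under PPCA on each of the 3 days in T cells, but the arms overlapped. It stood at 11.1, 13.5 and 10.6 CPM under vehicle and 7.86, 11.6 and 9.29 CPM under PPCA (log2 fold change -0.30, SE 0.118, edgeR adjusted p 0.597). In all, 7 members were lower on each of the 3 days (15% of all genes tested were) and 2 were higher (15.7% of all genes tested). Atm had day-by-day values on either side of vehicle, and so did Atr, Mdc1 and Prkdc, each lower on 1 day and higher on the other two. Chek1 was higher under PPCA on day 2 and lower on days 3 and 4, at 0.49, 0.72 and 2.11 CPM under vehicle and 1.08, 0.28 and 1.79 CPM under PPCA, on 10 to 110 UMIs per library.

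**Figure D2:**
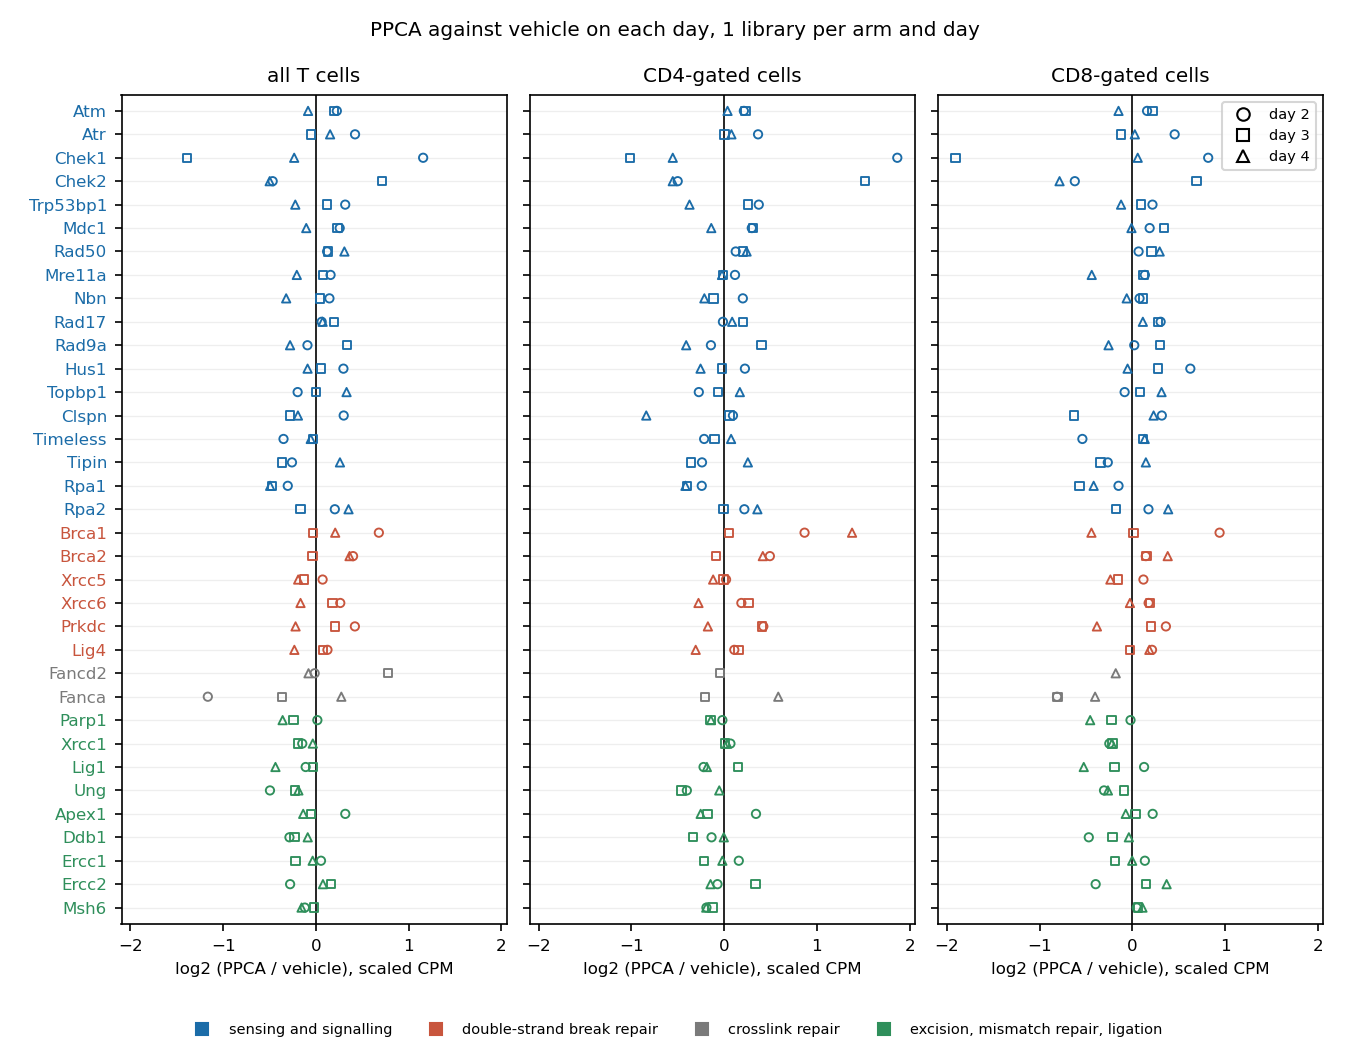
Log2 ratio of PPCA to vehicle for each member (rows, coloured by role) on day 2 (circle), day 3 (square) and day 4 (triangle), in all T cells, CD4-gated and CD8-gated cells; ratios resting on 3 or fewer UMIs in a library are left out. Rpa1 lies to the left of 0 on all 3 days in each panel, and Chek1 and Chek2 spread widely on both sides.

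No member was called in CD4-gated cells (33 members tested, 0% of 11605 genes called) or in CD8-gated cells (33 members tested, 0.0172% of 11599 genes called). At an unadjusted p under 0.05 there was 1 member, Rpa1, in CD4-gated cells and 2, Rpa1 and Rad17, in CD8-gated cells. In CD4-gated cells the arms did not overlap for 3 members, Rpa1 and Ung lower under PPCA (3.22% of all genes tested were) and Brca1 higher (3.67% were). In CD8-gated cells they did not overlap for Rpa1 and Xrcc1, a scaffold of single-strand break repair, both lower (3.35% were), and for Rad17, higher (3.44% were). Ung stood at 10.0, 12.1 and 9.01 CPM under vehicle and 7.57, 8.80 and 8.69 CPM under PPCA in CD4-gated cells, and Xrcc1 at 11.8, 12.4 and 12.8 CPM and 9.90, 10.7 and 11.0 CPM in CD8-gated cells. In CD4-gated cells the level of Brca1, which organises repair by homologous recombination, was 0.90, 1.18 and 0.80 CPM under vehicle and 1.64, 1.22 and 2.07 CPM under PPCA, counts of at most 26 UMIs per library. Its log2 fold change was 0.77 (SE 0.374) with an edgeR adjusted p of 0.743. The test of whether the PPCA effect differed between CD8- and CD4-gated cells called none of the 34 members (0.0165% of 12153 genes), with a smallest adjusted p of 0.932 and 1 member at an unadjusted p under 0.05. DESeq2 called 34 genes in the CD4 gate, 41 in the CD8 gate and 1 in the test between gates, with no member among them.

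The other lists behaved in the same way under PPCA in T cells. No gene was called among 90 further repair genes, 19 p53 target genes or 11 genes of replication licensing, the loading of the helicase that opens DNA. Cdkn1a, the p53 target that inhibits cyclin-dependent kinases, differed by 1.02 on the log2 scale (SE 0.26) and was not called (edgeR adjusted p 0.535), and Mdm2 differed by 0.06 (SE 0.09). Trp53 was at -0.02 (SE 0.12) and Wee1, whose protein PPCA targets, at 0.004 (SE 0.21). The pancreas genes, the Y-linked transcripts and the depth per cell (medians of 4947 to 5430 UMIs under vehicle and 3856 to 4622 under PPCA) also differed between libraries. The 10 dissociation and early response genes, such as Fos and Jun, summed to 2555, 3074 and 5923 CPM under vehicle and 1158, 2327 and 9146 CPM under PPCA on days 2, 3 and 4. The median percent of mitochondrial UMIs was lower under PPCA on each day, at 1.95%, 3.02% and 2.38% on days 2, 3 and 4 against 2.68%, 4.49% and 2.71% under vehicle. The 24 genes of mitosis and nucleotide synthesis used to mark cycling cells summed to 51.5, 42.3 and 65.3 CPM under PPCA and 51.3, 55.7 and 75.8 CPM under vehicle on the same days, and none of the 21 tested was called. The part of all these features in the members' values was not tested.

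CD8-gated and CD4-gated cells of the same library were compared next, 22045 cells with Cd8a or Cd8b1 and no Cd4 against 27411 with the reverse. Of the 33 members tested, 12 were higher and 5 lower in CD8-gated cells, which is 51.5% called, 36.4% higher and 15.2% lower. Beside that, edgeR called 46.1% of the 11561 genes tested, 23.2% higher and 22.9% lower. With calls this common in both directions, opposite calls for partners of a complex do not by themselves set those genes apart. The largest called differences were those of Chek2, Brca1, Lig4, Rpa2 and Nbn. The median log2 fold change was 0.073 over the members and -0.00061 over all genes.

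Among the sensors and signalling genes, 8 of 18 were higher and 3 lower in CD8-gated cells. Chek2, the checkpoint kinase that acts downstream of Atm, had a lowest level of 1.24, a median of 2.47 and a highest of 3.95 CPM over the 8 libraries in CD8-gated cells, against 0.51, 1.08 and 1.52 CPM in CD4-gated cells. It was higher in 8 of 8 libraries, on 308 and 157 UMIs (log2 fold change 1.25, SE 0.16, edgeR adjusted p 9.9e-06). Rpa2 ran from 22.5 to 39.0 CPM, with a median of 27.5, in CD8-gated cells and from 17.1 to 30.9 CPM, with a median of 18.6, in CD4-gated cells (log2 fold change 0.48, SE 0.05, adjusted p 1.01e-06). Its partner Rpa1 differed the other way, with a median of 40.5 CPM in CD8-gated and 47.5 CPM in CD4-gated cells (log2 fold change -0.27, SE 0.04, lower in 8 of 8 libraries).

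Subunits of the break-binding complex also differed in direction. Rad50, its ATPase, was higher in CD8-gated cells in 8 of 8 libraries (median 63.5 against 52.5 CPM, log2 fold change 0.26), and Nbn, which tethers Atm, was lower in 8 of 8 (median 15.8 against 21.4 CPM, log2 fold change -0.44, edgeR adjusted p 1.66e-05). Mre11a, the nuclease, was not called (log2 fold change 0.05). Timeless and Tipin, which form the complex that protects stalled forks, also differed in opposite directions, Timeless at -0.24 and Tipin at 0.11 on the log2 scale. The kinases Atm (0.12) and Atr (0.20), the scaffold Topbp1 (0.26), which activates Atr, and Mdc1 (0.089) were higher in CD8-gated cells. Trp53bp1, Rad17, Rad9a, Hus1 and Clspn were not called, with log2 fold changes from -0.04 to 0.07, and neither was Chek1 (0.50, SE 0.26).

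In double-strand break repair, Brca1 (log2 fold change 0.66, SE 0.18) and Brca2 (0.42, SE 0.10), both used in homologous recombination, were higher in CD8-gated cells. Lig4, the ligase of end joining, was lower in 8 of 8 libraries, at 2.14 to 5.69 CPM against 3.39 to 7.07 CPM in CD4-gated cells (log2 fold change -0.50, SE 0.09, edgeR adjusted p 0.000429). The other end-joining genes Xrcc5, Xrcc6 and Prkdc were not called, at 0.02 to 0.09. In excision and mismatch repair, Ung (0.32) and the abasic-site nuclease Apex1 (0.17) were higher and the mismatch sensor Msh6 lower (-0.38, lower in 8 of 8 libraries). Fancd2 and Fanca, of the crosslink repair pathway, did not pass the low-count filter.

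Of these 17 calls, 5 were kept under each of the 17 other settings tried, namely Rpa2, Rad50, Chek2, Nbn and Msh6. Mdc1 lost its call in 15 of the 17 (adjusted p up to 0.621), with any 1 library but the active one left out among them. Tipin lost it in 7 of 17 (up to 0.657), among them the fit without vehicle day 4 (0.0639), and Apex1 and Atm in 4 each. With only the 4 libraries without Y-linked transcripts 14 members were called, beside 32.2% of 11716 genes. CD8-gated cells held more UMIs, with medians of 4276 to 7232 per library against 3855 to 6151, and after each cell was thinned to 2000 UMIs 11 of 32 members and 3548 genes (34.6% of those tested) were called. The 3 B cell genes summed to 10.2 to 17.1 CPM in CD8-gated and 1.61 to 2.65 CPM in CD4-gated cells, and the 10 dissociation and early response genes to 856 to 7326 CPM and 1285 to 10197 CPM in that order. Of those 10 genes 8 were called lower in CD8-gated cells and none higher, among them Junb (log2 fold change -0.82), Jun (-0.56), Dusp1 (-0.91) and Jund (-0.35). The part of the B cell and of the dissociation genes in the result was not tested. Of the further repair genes 20 were higher and 16 lower among 85 tested, and of the licensing genes 6 of 10 were higher and none lower, led by Mcm6 (log2 fold change 0.46) and Cdt1 (0.45).

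**Figure D3:**
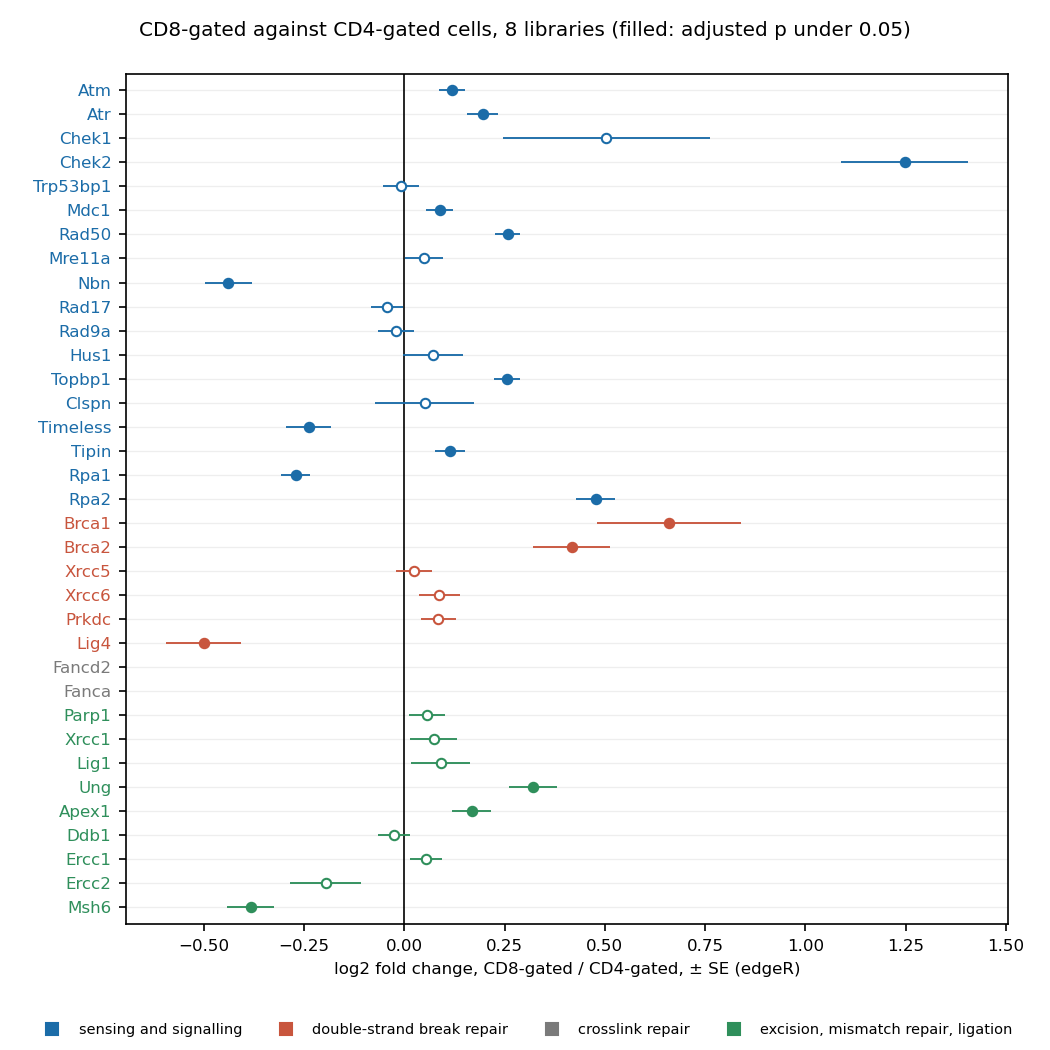
Log2 fold change with its SE for each member (rows, coloured by role) in CD8-gated over CD4-gated cells of the 8 libraries, on a horizontal log2 axis. Filled circles passed an adjusted p of 0.05; Chek2 lies farthest to the right at 1.25 and Lig4 farthest to the left at -0.50.

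Cycling T cells, defined by at least 3 of 24 genes of mitosis and nucleotide synthesis that include no member, were set against all other T cells. There were 244 such cells, 14 to 51 per library, with 167 of them at exactly 3 genes and another 1317 cells just under the cut with 2. Of the 33 members tested, 15 were higher and 2 lower in cycling cells, where edgeR called 25.1% of the 11401 genes tested, 10.9% higher and 14.2% lower. With each cell thinned to 2000 UMIs, which evens out the depth of the cells, 3 were called higher and 1 lower of the 30 members still tested, beside 10.2% of 9898 genes, and the 3 members Parp1, Rpa1 and Apex1 changed direction. Of the members called higher, Chek1, Brca1, Clspn, Lig1 and Brca2 had the largest log2 fold changes in that order. The median log2 fold change was 0.41 over the members and -0.13 over all genes tested.

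Chek1, the kinase through which Atr slows replication and mitosis, had 52 of its 420 UMIs (12.4%) in cycling cells, which held 0.348% of the T cells and 0.69% of all their UMIs. Its level ran from 0 to 37.2 CPM with a median of 15.8 in cycling cells, and from 0.30 to 2.05 CPM with a median of 0.96 in other cells. The log2 fold change was 3.89 (SE 0.43, edgeR adjusted p 2.08e-10), and Chek1 was higher in 6 of 8 libraries and listed at 0 in the cycling cells of 2. Clspn, the adaptor that presents Chek1 to Atr, was higher in 8 of 8 libraries, from 7.94 to 63.5 CPM with a median of 22.1 against 3.10 to 6.80 CPM with a median of 5.10 (log2 fold change 2.68, SE 0.28). Lig1 was also higher in 8 of 8, from 35.4 to 127 CPM with a median of 72.2 against 12.7 to 18.5 CPM (log2 fold change 2.42, SE 0.17, adjusted p 3.12e-17). The ranges of Clspn and of Lig1 did not overlap between cycling and other cells. For Clspn, with 93 UMIs in cycling cells, the lowest value of 7.94 CPM, in PPCA of day 3, rested on 1 UMI.

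Both genes of the fork protection pair were higher in cycling cells, Tipin with a log2 fold change of 1.32 (SE 0.18, 1.49 after thinning) and Timeless with 1.37 (SE 0.20), in 7 and 8 of 8 libraries. After thinning Timeless stood at 1.11 and was not called (adjusted p 0.0797). Topbp1 (0.86), Rpa2 (1.05), Rpa1 (0.51, but -0.37 after thinning) and Chek2 (1.43, SE 0.53, 13 UMIs) were higher among the other signalling genes. Atm (-0.58, SE 0.16, lower in 7 of 8 libraries) and Mdc1 (-0.72, SE 0.23, lower in 7 of 8), the adaptor that spreads the break signal along chromatin, were lower. In homologous recombination Brca1 (2.72, SE 0.45, 36 UMIs) and Brca2 (1.87, SE 0.32) were higher, while the end-joining genes Xrcc5, Xrcc6, Prkdc and Lig4 were not called, with values from -0.06 to 0.12. In excision repair Ung (1.29), Apex1 (0.69), Ercc1 (0.61) and Parp1 (0.52) were higher, but after thinning Apex1 stood at -0.20 and Parp1 at -0.050, and Ercc1 lost its call at 0.20.

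Of these 17 calls, 5 were kept under every other setting in which the gene was tested, namely Chek1, Brca1, Clspn, Lig1 and Tipin. Chek2 lost its call in 8 of 17 settings, among them the fits without the active library (adjusted p 0.116), the onset library (0.0735), vehicle day 2 (0.0863) or PPCA day 4 (0.113), and its log2 fold change was 0.27 (adjusted p 0.615) with a cut of 2 cycling genes. Mdc1 lost its call in 6 of 18, among them the fits without the onset library (adjusted p 0.0543), PPCA day 2 (0.113) or vehicle day 4 (0.0781) and both DESeq2 (0.109) and limma-voom (0.123). Ercc1 lost it in 4 of 18, and without the active library neither Ercc1 (adjusted p 0.0631) nor Apex1 (0.0622) was called. The cut also moved the size of the kept calls, with log2 fold changes from 1.28 to 3.74 for Clspn and from 1.25 to 3.22 for Lig1, lowest at 2 and highest at 4 cycling genes.

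**Figure D4:**
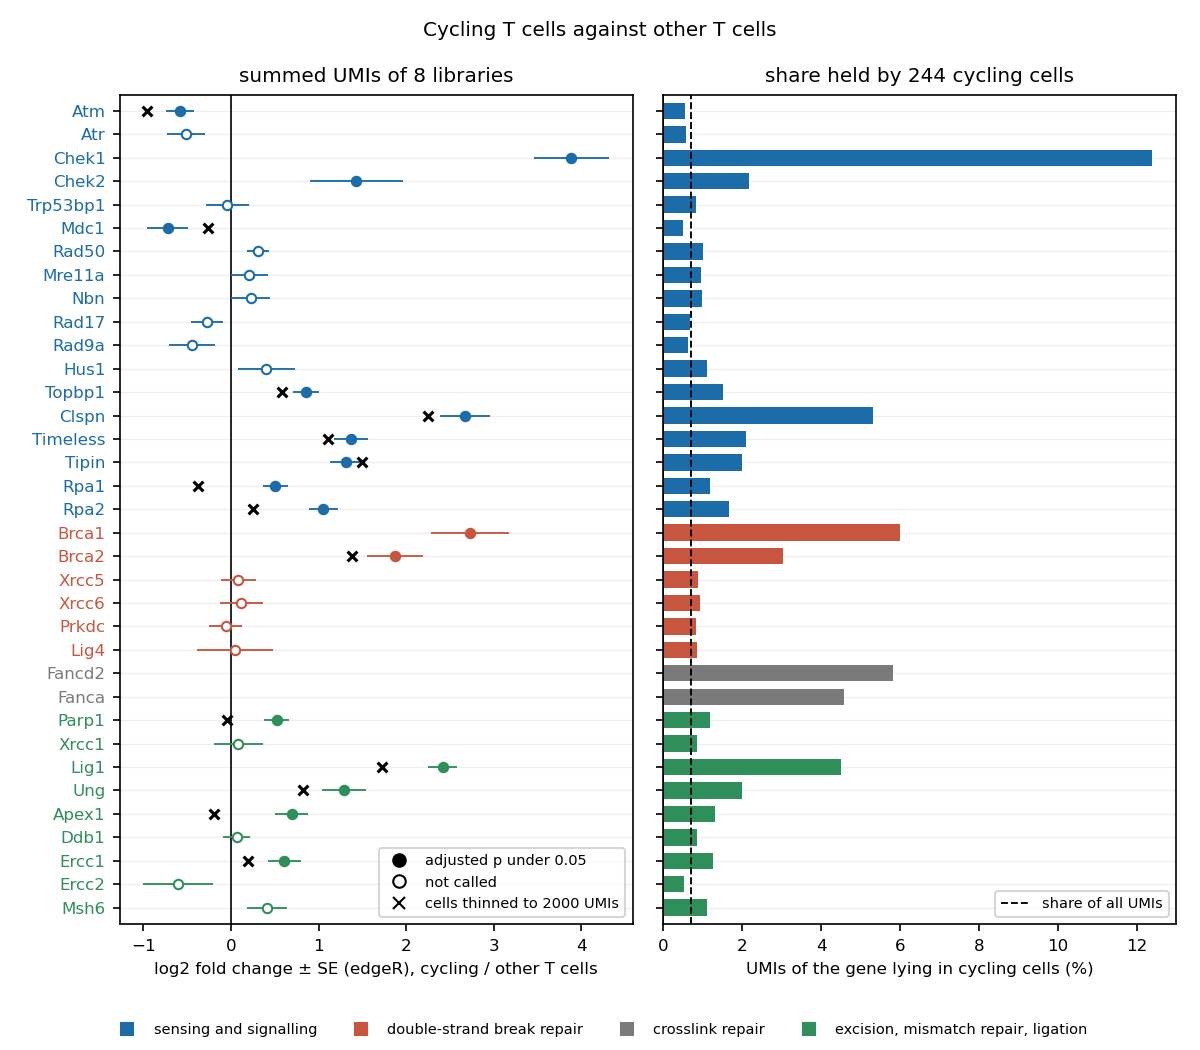
Left, log2 fold change with SE of each member in cycling against other T cells (filled, adjusted p under 0.05; crosses, the value after each cell was thinned to 2000 UMIs, for called members still tested). Right, percent of each gene's T cell UMIs that lie in the 244 cycling cells, with the dashed line at their 0.69% share of all UMIs; Chek1 reaches 12.4%, and Parp1, Rpa1 and Apex1 move across 0 after thinning.

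Cycling cells were deeper than the rest, with median UMIs of 6350 to 11879 per library against 3855 to 6447, so the comparison was repeated with each cell thinned to 2000 UMIs. That left 4 members called, Lig1 (log2 fold change 1.72), Clspn (2.25), Tipin (1.49) and the lower Atm (-0.96), beside 1005 genes. Chek1, Brca1 and Chek2 no longer passed the low-count filter. Brca2 (1.39, adjusted p 0.161), Topbp1 (0.58, 0.193), Ung (0.82, 0.368), Rpa2 (0.25, 0.773) and the lower Mdc1 (-0.26, 0.772) kept their direction and lost their calls. With all UMIs of only the 4 libraries without Y-linked transcripts 14 members were called, beside 21% of 11598 genes. The 10 dissociation and early response genes summed to 827 to 5578 CPM in cycling and 1263 to 10037 CPM in other cells, with 8 called lower and none higher, among them Junb (log2 fold change -0.94), Jun (-0.87), Fos (-0.92) and Jund (-0.56). The 12 pancreas genes summed to 2.52 to 63.5 CPM and 12.8 to 156 CPM in that order, with 3 called lower, Ctrb1 (-2.32), Pnlip (-2.18) and Cela2a (-1.50). The part of both lists in the result was not tested. All 11 licensing genes were higher in cycling cells, among them Mcm5 (2.41) and Cdc6 (4.97), and of 86 further repair genes 17 were higher, with the smallest adjusted p for Rfc4 (1.96), and 7 lower.

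Since several members were higher together in cycling cells, their promoters were searched for the E2F-type motifs TTTCCCGC, TTTCGCGC, TTTGCCGC and TTTGGCGC on both strands; E2F factors are known to bind such sites before genes of the S phase. Windows of 250 bases before to 50 after the start, credited to RefSeq on build GRCm38.p6, matched 29 of the 35 members. A motif was present in 8 of these 29 (27.6%) and in 704 of 27025 genes with a window (2.61%), or 744 of 32851 windows (2.26%). That background took in genes whether or not they passed the low-count filter, and it was not matched to the members for base content. The 8 were Clspn, Lig1, Brca2, Topbp1, Chek2, Xrcc6, Mdc1 and Msh6, so that 5 of the 14 members higher in cycling cells and 3 of the other 15 held a motif. With Parp1, Rpa1 and Apex1, whose direction turned on thinning, counted among the others, these were 5 of 11 and 3 of 18. That regrouping moved only genes without a motif. Members that lost a call without turning stayed among the 11, with a motif (Chek2, Brca2, Topbp1) or without (Ercc1, Rpa2, Ung, Timeless). Of the calls kept under every other setting, Clspn and Lig1 held a motif, Chek1 and Brca1 had no full match, and Tipin had no window. No window was matched for Rad50, Nbn, Prkdc, Fancd2, Rad9a and Tipin. The windows of 4 members that were higher in cycling cells are shown 5′ to 3′ on the + strand, with the motif in capitals. They are chr4:126556730-126557029 (Clspn), chr7:13278576-13278875 (Lig1, the only 1 of its 3 windows with a motif), chr5:150522371-150522670 (Brca2) and chr9:103305077-103305376 (Topbp1).
Clspn: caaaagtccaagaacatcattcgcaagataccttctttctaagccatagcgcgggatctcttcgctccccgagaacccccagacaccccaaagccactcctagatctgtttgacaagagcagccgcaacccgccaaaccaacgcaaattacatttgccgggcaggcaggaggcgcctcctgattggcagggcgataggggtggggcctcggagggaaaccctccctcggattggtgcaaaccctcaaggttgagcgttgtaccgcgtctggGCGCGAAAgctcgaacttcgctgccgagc
Lig1: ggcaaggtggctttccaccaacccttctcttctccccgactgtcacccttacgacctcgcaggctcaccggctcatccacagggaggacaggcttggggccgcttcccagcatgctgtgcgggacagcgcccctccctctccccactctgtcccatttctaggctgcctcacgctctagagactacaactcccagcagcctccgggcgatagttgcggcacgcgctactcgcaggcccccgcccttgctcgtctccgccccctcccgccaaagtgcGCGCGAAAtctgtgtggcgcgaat
Brca2: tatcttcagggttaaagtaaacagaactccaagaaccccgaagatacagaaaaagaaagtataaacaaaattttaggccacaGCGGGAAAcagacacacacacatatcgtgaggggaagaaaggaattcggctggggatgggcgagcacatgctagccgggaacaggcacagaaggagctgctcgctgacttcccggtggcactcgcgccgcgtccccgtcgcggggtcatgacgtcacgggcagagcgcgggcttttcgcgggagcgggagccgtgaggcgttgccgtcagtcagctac
Topbp1: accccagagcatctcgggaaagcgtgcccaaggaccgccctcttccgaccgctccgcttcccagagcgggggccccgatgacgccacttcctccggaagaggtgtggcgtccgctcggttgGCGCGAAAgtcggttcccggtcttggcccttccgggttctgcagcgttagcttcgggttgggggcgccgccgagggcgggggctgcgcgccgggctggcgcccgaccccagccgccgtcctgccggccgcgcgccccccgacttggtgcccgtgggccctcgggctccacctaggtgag
The motif in each is on the reverse strand, read here as GCGCGAAA in Clspn, Lig1 and Topbp1 and as GCGGGAAA in Brca2. It starts 21 bases after the annotated start in Clspn and 26 after it in Lig1, and 168 and 129 bases before it in Brca2 and Topbp1. Chek1 and Brca1, which had the largest fold changes in cycling cells, had a window without a full match. The Chek1 window ended in gcgggaa, 1 letter short of GCGGGAAA. Its edge therefore leaves undecided whether that motif was present, since only full matches within the window were counted.

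The libraries of day 4 differed from those of days 2 and 3 in 17.6% of the 13611 genes tested, with treatment in the model and 2 libraries per day. Day 4 is 1 day set against 2, and its 2 libraries entered as separate replicates although libraries of a day deviated from their arm means together, with correlations across genes of 0.372, 0.441 and 0.536 on days 2, 3 and 4. The p-values of this comparison therefore do not measure the spread between days. Of the 35 members, 3 were higher (9.81% of all genes tested were) and 1 lower (7.74% were) on day 4, all 4 in sensing and signalling. Topbp1 was at 43.9 and 55.2 CPM on day 4 and between 32.3 and 41.1 CPM on the earlier days (log2 fold change 0.49, SE 0.12, edgeR adjusted p 0.0323). Rpa2 was at 26.5 and 33.8 CPM on day 4 and between 20.4 and 23.5 CPM before (0.45, SE 0.12, adjusted p 0.0456). Chek1 was at 2.11 and 1.79 CPM on day 4 and between 0.28 and 1.08 CPM before (1.60, SE 0.43, adjusted p 0.0425). Rad9a, of the checkpoint clamp, was lower at 13.2 and 10.9 CPM on day 4 against 15.4 to 19.9 CPM (-0.60, SE 0.15, adjusted p 0.0344). In each of the 4 genes the day 4 libraries lay outside the range of the other 4 treated or vehicle libraries.

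These day values moved with other features of the libraries. The 10 genes of the dissociation and early response, such as Fos, Jun and Hspa1a, summed to 5923 and 9146 CPM on day 4 and to between 1158 and 3074 CPM on days 2 and 3. The 24 cycling genes summed to 75.8 and 65.3 CPM on day 4 under vehicle and PPCA and to between 42.3 and 55.7 CPM on days 2 and 3, with 3 of 21 tested called higher and none lower. The 11 licensing genes summed to 277 and 289 CPM on day 4 and to between 201 and 261 CPM before, with Mcm4 called higher (log2 fold change 0.52) and none lower. Chek1, Topbp1 and Rpa2, called higher on day 4, were also called higher in cycling cells, although after thinning there Topbp1 and Rpa2 were not called and Chek1 could not be tested. The part of these 3 lists in the result was not tested. Without the libraries of day 3 no member was called (6.06% of the genes tested were), and without those of day 2 there were 2 (8.75%). With the presence of Y-linked transcripts as a factor 9 of 35 members were called, 4 higher and 5 lower, beside 25.3% of the genes tested. Of the p53 targets 7 were higher and 4 lower on day 4 among 19 tested, among them Cdkn1a (log2 fold change 3.06), Plk2 (2.18) and Pmaip1 (1.45) upward and Ddit4 (-1.37) downward, and of 91 further repair genes 5 were higher and 7 lower.

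**Figure D5:**
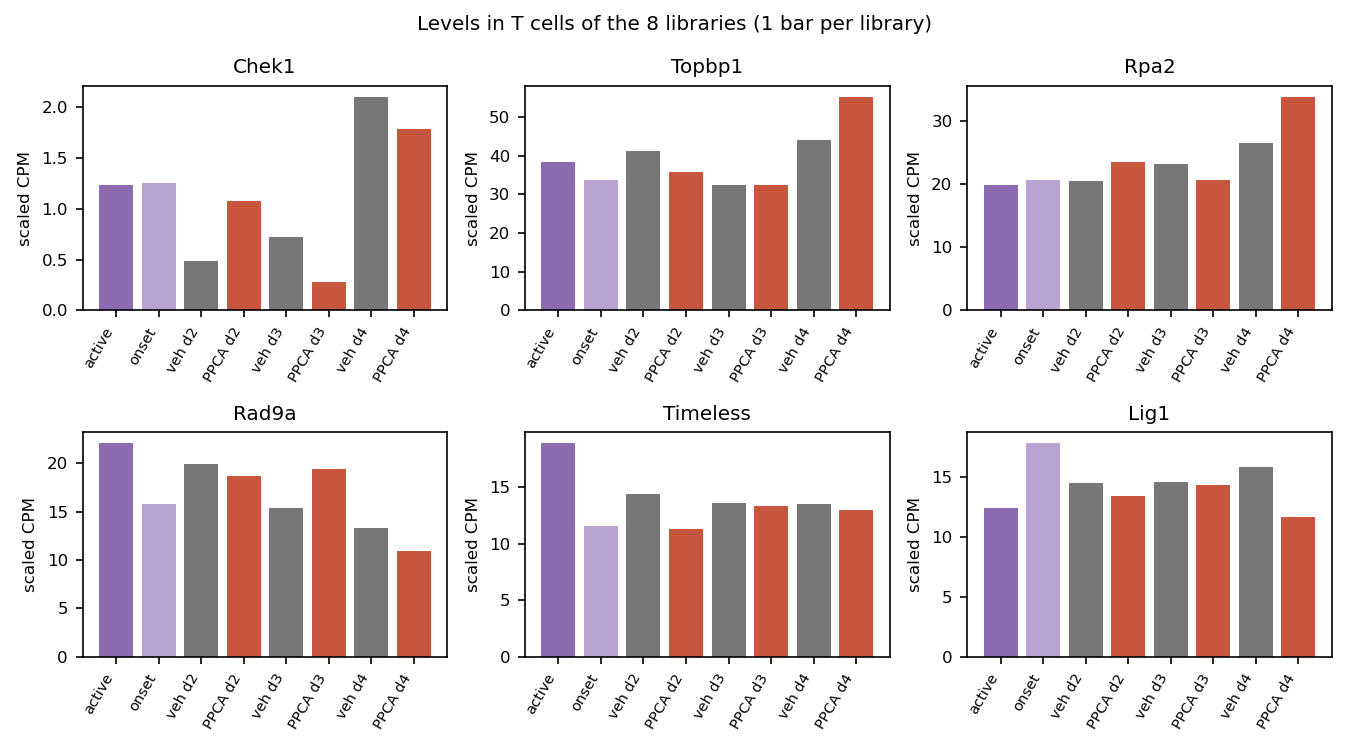
Level in T cells of each of the 8 libraries, in scaled CPM from 0, for Chek1, Topbp1, Rpa2, Rad9a, Timeless and Lig1; each bar is 1 library, in purple for active and onset, grey for vehicle and red for PPCA of days 2, 3 and 4. Chek1, Topbp1 and Rpa2 are highest and Rad9a lowest in the 2 libraries of day 4, and Timeless is highest in the active library.

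The active and onset libraries, with 1 library each and so no test, were compared by the ratio of their CPM before scaling, with an exact 95% interval for counting error alone. With a gap of at least 1.5-fold and at least 10 CPM in the higher library, 1 of 25 members at that level differed in T cells, beside 4.29% of 7456 genes. That member was Timeless, at 19.0 CPM in the active and 11.6 CPM in the onset library (905 and 575 UMIs, log2 ratio 0.72, interval 0.56 to 0.87). Its scaled level of 18.9 CPM in the active library was also above those of the 6 libraries of vehicle and PPCA, which ran from 11.3 to 14.4 CPM. It was 1.59-fold higher in CD4-gated cells (20.5 against 12.9 CPM; 4.1% of genes passed) and 1.77-fold higher in CD8-gated cells (18.5 against 10.5 CPM; 5.99% of genes passed).

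Lig1 was the other member past that gap, in CD8-gated cells, at 13.3 CPM in the active and 22.1 CPM in the onset library (log2 ratio -0.73, interval -0.99 to -0.48). In T cells its log2 ratio was -0.51. Rad9a had a log2 ratio of 0.49 (22.2 against 15.7 CPM) and Trp53bp1 one of -0.35 (17.7 against 22.6 CPM), both within the 1.5-fold gap, and Atm was at 56.3 and 57.5 CPM. Some members below the level asked for also differed, on few UMIs in the active and onset libraries. In T cells Brca1 was 1.53-fold higher in the active library (116 and 79 UMIs) and Fancd2 1.85-fold (23 and 13). In CD4-gated cells Brca1 was 2.08-fold higher (41 and 27 UMIs), Fancd2 1.92-fold higher (7 and 5) and Chek1 lower, at a log2 ratio of -1.49 (7 and 27). In CD8-gated cells Brca1 was at 1.09-fold, Chek1 at a log2 ratio of 0.07, and Fancd2 had 10 and 0 UMIs. The active and onset libraries also differed in median depth (6453 and 4950.5 UMIs per T cell) and in the summed CPM of the dissociation (1911 and 2968), pancreas (12.1 and 23.6), B cell (8.65 and 5.58) and NK cell genes (3.45 and 1.58), in that order. The part of these in the ratios was not tested.

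The authors' deposited table of marker genes lists 2 of the 35 members among 2100 rows for 7 clusters. The authors' deposited table gives Apex1 in the cluster named CD4 Th0 with a log2 fold change of 0.32. The authors' deposited table gives Rpa2 in the cluster named CD8 TRM TEM with a log2 fold change of 0.39.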

How the data were processed

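The members and the gene lists were chosen with earlier results of these data known. Raw UMI counts for every gene and barcode fill the deposited matrices, per the file headers, which name Cell Ranger 6.0.0, while the submitters' processing notes name Cell Ranger 6.1.2 and Seurat; the sources used here do not give the build behind the counts. The marker table deposited by the authors holds p-values and log2 fold changes.

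Filters asked for 500 or more genes in a cell and mitochondrial UMIs under 10%. Doublet scores came from the Scrublet of scanpy 1.11.5, and the top-scoring 0.8% per 1000 barcodes were removed, since its own threshold marked 0 to 2 cells in each library. T cells had at least 2 UMIs over Cd3d, Cd3e, Cd3g, Trac, Trbc1 and Trbc2 and at most 1 UMI over the B cell and myeloid genes. CD4-gated cells had at least 1 UMI of Cd4 and none of Cd8a or Cd8b1, CD8-gated cells the reverse, and 21.6% to 35.1% of T cells fell in neither gate.

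Sums per library were fitted with edgeR 4.0.16 in R 4.3.3 (quasi-likelihood, TMM, filterByExpr), with day as a block for treatment and library as a block within libraries. Vehicle and PPCA libraries of a day deviated together from their arm means, with correlations across genes of 0.37, 0.44 and 0.54 on days 2, 3 and 4 in T cells, so the day pairs them. Alternatives used DESeq2 1.42.0, limma 3.58.1, other filters, gates and depths, and left out libraries; the one within libraries that leaves out those with Y-linked transcripts was chosen after seeing the data. A planned comparison within the gates is not reported here. All members could be named, and of the other lists the called genes with the smallest adjusted p plus Cdkn1a, Mdm2, Wee1 and Trp53. Scripts were tested on simulated data.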

Additional observations from a re-analysis of the deposited data

How the results depend on the processing

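No member was called for PPCA in all T cells or in either gate under any of the 11 other settings. The number of genes called did change: DESeq2 gave 71 genes in all T cells, 34 in the CD4 gate and 41 in the CD8 gate, no low-count filter 132, 218 and 199 in that order, and Y-linked transcripts as a factor 57, 86 and 74. Leaving out 1 day at a time gave 0 to 8, 0 to 100 and 0 to 162 genes, the highest each time without day 4. In CD8-gated cells no replicate block and no doublet removal each gave 0. The difference of the PPCA effect between gates had 3 to 78 genes with a day left out, 0 with no replicate block and 1 with DESeq2.

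For day 4 against days 2 and 3, leaving out a day gave 811 to 1188 genes and 0 to 2 members; no value can be had without day 4. With no low-count filter 7 members were called (14.6% of genes), and with Y-linked transcripts as a factor 9 (25.3%). Between CD8- and CD4-gated cells, no replicate block gave 2014 genes and 6 members, and cells thinned to 2000 UMIs 3548 genes and 11 members. In cycling cells, thinning to 2000 UMIs gave 1005 genes and 4 members and reversed Parp1 (-0.050), Rpa1 (-0.37) and Apex1 (-0.20). Thinning leaves fewer UMIs to test, and its part apart from depth was not tested. With at least 4 cycling genes 1 library held no such cell and 7 were fitted. With no replicate block by day, 0 genes were called in all T cells and in the CD4 gate, as with it.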

Other observations

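Fancd2 and Fanca, members of the Fanconi anaemia pathway that unhooks crosslinked DNA strands, were the thinnest counted and entered few of the tests. Fancd2 ran from 0.24 to 0.48 CPM and Fanca from 0.34 to 0.75 CPM over the T cells of the 8 libraries. In T cells Fancd2 had a log2 fold change of 0.22 (SE 0.40) and Fanca of -0.38 (SE 0.38) under PPCA, neither called by edgeR. The 244 cycling cells held 7 of the 120 UMIs of Fancd2 (5.83%) and 9 of the 196 UMIs of Fanca (4.59%), beside 0.69% of all UMIs, a description with no test since neither passed the low-count filter there.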
